A study of Mus musculus with 11 samples.

Results

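The genes described here are 8 genes that mark macrophages of the heart, Timd4, Folr2, Cd163, Mrc1, Cbr2, F13a1, Csf1r and Adgre1. They were listed by name, with earlier results of these data known, and matched by gene symbol to the Ensembl IDs of the count files, and they are 8 of 25006 genes counted. All 8 passed the filter on low counts, together with 14779 genes in all. The libraries came from RNA of mouse left ventricle, 1 library per mouse. Control mice carried Vegfc fl/fl, a floxed allele of the lymphatic growth factor Vegfc, and Vegfc-deficient mice carried Vegfc fl/fl;LysMCre, in which Cre recombinase is driven from the lysozyme gene Lyz2 and acts in macrophages, monocytes and neutrophils. That is the genotype field of the sample labels, while the protocol text and the methods call the controls LysMCre mice. Mice were either naive, with no ligation, or had myocardial infarction (MI) by permanent ligation of the left anterior descending coronary artery. Infarcted tissue was taken 9 days later, and tissue of a like mass and place was taken from naive hearts. The methods give 9 days, while the results text of the paper gives 1 week. The groups were naive control (mice M44 and M45), naive Vegfc-deficient (M149, M150 and M34), MI control (M006, M38 and M40) and MI Vegfc-deficient (M35, M900 and M913). Neither the sex nor the age of the mice was given for these libraries in the sources used here.

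Macrophages reside in the healthy heart from before birth, and part of this pool renews itself locally. After infarction many of these cells die in the injured area and blood monocytes enter and become macrophages. Resident cells are known for scavenger and uptake receptors (Timd4, Folr2, Cd163, Mrc1) and for the enzymes Cbr2 and F13a1. Csf1r and Adgre1 mark macrophages of both origins. Whether the RNA of any of these genes came from resident cells alone was not tested. In RNA of whole tissue, fewer cells of a type and less RNA per cell cannot be told apart.

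RefSeq promoters (GRCm38.p6, 250 bases before to 50 after each start) were at hand for 6 of the 8 genes, with 8 start sites among them. Of these, 4 are printed so that the letters before 3 genes that were lower after MI (Timd4, Cbr2 and F13a1) can be read beside those of Mrc1, which was not called. Capitals mark the core GAGGAA, bound by the myeloid factor PU.1, and the half-site TGCTGA, bound by MAF factors, on either strand, so that they also appear as TTCCTC and TCAGCA.
Timd4, chr11:46810549-46810848, plus strand: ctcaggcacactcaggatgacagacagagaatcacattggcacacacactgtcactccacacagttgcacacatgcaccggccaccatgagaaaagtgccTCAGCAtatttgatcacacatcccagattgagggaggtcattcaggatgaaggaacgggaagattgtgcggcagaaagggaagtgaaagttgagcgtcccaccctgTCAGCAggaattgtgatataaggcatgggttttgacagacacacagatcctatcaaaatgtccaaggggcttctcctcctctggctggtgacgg
Cbr2, chr11:120731972-120732271, minus strand: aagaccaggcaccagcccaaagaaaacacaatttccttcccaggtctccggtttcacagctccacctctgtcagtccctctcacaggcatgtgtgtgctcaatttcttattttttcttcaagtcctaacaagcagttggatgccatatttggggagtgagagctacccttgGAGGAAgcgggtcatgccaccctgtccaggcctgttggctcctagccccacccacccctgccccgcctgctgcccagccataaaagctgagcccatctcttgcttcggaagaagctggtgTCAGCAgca
F13a1, first start site, chr13:37050195-37050494, minus strand: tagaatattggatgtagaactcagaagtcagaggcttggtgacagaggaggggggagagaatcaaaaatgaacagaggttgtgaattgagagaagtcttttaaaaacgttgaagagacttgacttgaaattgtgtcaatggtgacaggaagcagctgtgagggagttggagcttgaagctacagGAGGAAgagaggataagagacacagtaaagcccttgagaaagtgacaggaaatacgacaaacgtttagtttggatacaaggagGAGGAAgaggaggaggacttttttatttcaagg
Mrc1, chr2:14229164-14229463, plus strand: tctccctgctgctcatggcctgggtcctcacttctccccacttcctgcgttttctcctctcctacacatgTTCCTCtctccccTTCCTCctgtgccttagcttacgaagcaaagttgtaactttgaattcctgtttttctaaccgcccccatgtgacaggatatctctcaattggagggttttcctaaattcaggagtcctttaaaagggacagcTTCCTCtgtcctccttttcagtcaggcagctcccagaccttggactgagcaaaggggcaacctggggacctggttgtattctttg
The Timd4 promoter held the half-site TGCTGA at 2 places, whose first bases lay at -150 and -44 from the start, and no GAGGAA. Mrc1 held GAGGAA at 3 places, F13a1 at 2 places in the promoter shown, and Cbr2 held 1 match of each kind. Both Folr2 start sites had 1 TGCTGA each, the second F13a1 start site had 1 GAGGAA, and Cd163 had neither. Over all 32851 RefSeq promoters of this length, 28.3% held GAGGAA and 19.5% held TGCTGA. Of the 8 promoters of these genes, 4 held the first, 4 held the second and 0 held TATAAA, which 13.6% of all promoters held. No 2 matches overlapped. A match describes letters only.

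Total counts were 10824989 to 26782728 per library, and 3 counts corresponded to 0.101 to 0.363 CPM, which are counts scaled to the size of the library so that libraries can be compared. Vegfc itself, the targeted gene, was at 25.1 and 34.7 CPM in naive control, 27.5 to 34.5 CPM in naive Vegfc-deficient, 21.9 to 45.5 CPM in MI control and 22.4 to 29.4 CPM in MI Vegfc-deficient libraries. These ranges overlapped. LysMCre spares Vegfc of cells outside the myeloid lineage, and the part of such cells in these values was not tested. Lyz2, which the LysMCre allele interrupts, was lowest among naive libraries in M150 (72.5 CPM) and M34 (244.7 CPM). It reached 4564.6 CPM in M149, a library labelled naive Vegfc-deficient, against 2120.5 and 2281.8 CPM in naive controls. Its Lyz2 was thus unlike that of M150 and M34, which share its label. The 14 genes of macrophages in general, described below, summed to 7712.7 CPM in M149. They summed to 3767.6 and 4310.1 CPM in the naive controls and to 2249.3 and 2474.6 CPM in M150 and M34. The parts of genotype and of macrophage content in the Lyz2 value of M149 were not tested. M149 is counted by its label throughout, and whether this mouse carried LysMCre was not tested. After MI Lyz2 was at 4538.0 to 5380.2 CPM in control hearts and at 1391.9, 203.3 and 12.4 CPM in M35, M900 and M913. The same macrophage genes summed to 5326.6 to 11120.8 CPM in MI control hearts. Their sums were 3074.5, 7817.6 and 8435.6 CPM in M35, M900 and M913. M35 is likewise counted by its label. The library labelled M149 also held the highest Chil3 of all, at 1678.9 CPM, against 26.0 and 54.2 CPM in M150 and M34 and 579.9 and 601.1 CPM in the naive controls. The 8 alveolar macrophage markers summed to 647.9 CPM in M149, to 249.3 and 270.8 CPM in the naive controls and to 31.8 and 45.2 CPM in M150 and M34. Atp6v0d2 made up most of the sum in M149 and in both controls, where Ear1 was at 0. In the naive controls Fabp1, Krt79 and Plet1 were at 0 to 0.634 CPM. Ear2 was at 1.16 and 1.18 CPM there and Marco at 3.48 and 5.62 CPM. M35 stood apart after MI in some, not all, of the peritoneal macrophage markers. Its Alox15 was at 51.9 CPM against 0.473 to 1.87 CPM in the other 5 MI libraries and its Prg4 at 82.7 CPM against 12.6 to 31.5 CPM. Its Selp was at 9.81 CPM against 2.98 to 4.6 CPM. Gata6 was at 51.8 CPM against 25.3 to 42.5 CPM, and at 39.2 and 43.8 CPM in the naive controls. Icam2 was at 67.4 CPM in M35, below the 82.3 CPM of M006. The 5 markers summed to 263.7 CPM in M35 against 93.4 to 135.0 CPM. Naive and MI libraries differed in a further way. Xist, expressed from the inactive X chromosome, was at 0.624 to 11.8 CPM in naive and 187.7 to 403.4 CPM in MI libraries, and 4 Y-linked genes summed to 152.2 to 195.3 CPM and 0 to 1.84 CPM. Naive libraries thus had the Xist and Y-linked levels of male mice and MI libraries those of female mice. The effect of MI and that of sex cannot be told apart.

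Of the 8 genes, 5 were lower after MI and 1 was higher, in each genotype. A gene is called where edgeR's quasi-likelihood test gave a Benjamini-Hochberg adjusted p under 0.05, with all genes tested in the adjustment. Timd4, Folr2, Cd163, Cbr2 and F13a1 were lower, by 2.6-fold to 6.01-fold in control and by 3.17-fold to 6.07-fold in Vegfc-deficient hearts. Adgre1 was higher, by 3.47-fold and 3.01-fold, and Mrc1 and Csf1r were not called. In control hearts 50.4% of all genes were called, 24.1% lower and 26.3% higher, and in Vegfc-deficient hearts 57.6% were called, 27.7% lower and 30.0% higher. The median log2 fold change of the 8 genes was -1.5 in control and -1.7 in Vegfc-deficient hearts, beside 0.13 and 0.097 over all genes. Both naive control libraries lay on one side of all 3 MI control libraries in 8 of the 8 genes, as they did in 72.1% of all genes. In the Vegfc-deficient groups this held for 6 of the 8, all but Mrc1 and Csf1r, beside 64.3% of all genes. DESeq2's Wald test also called 6 of the 8 in each genotype, among 7734 genes called in control and 8759 in Vegfc-deficient hearts. Without the libraries M35 and M149, edgeR called 7 of the 8 in each genotype, since Csf1r passed as well. Over 18 alternative settings, genes called in all numbered 4574 to 9009 in control and 6909 to 9880 in Vegfc-deficient hearts.

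**Figure D1:**
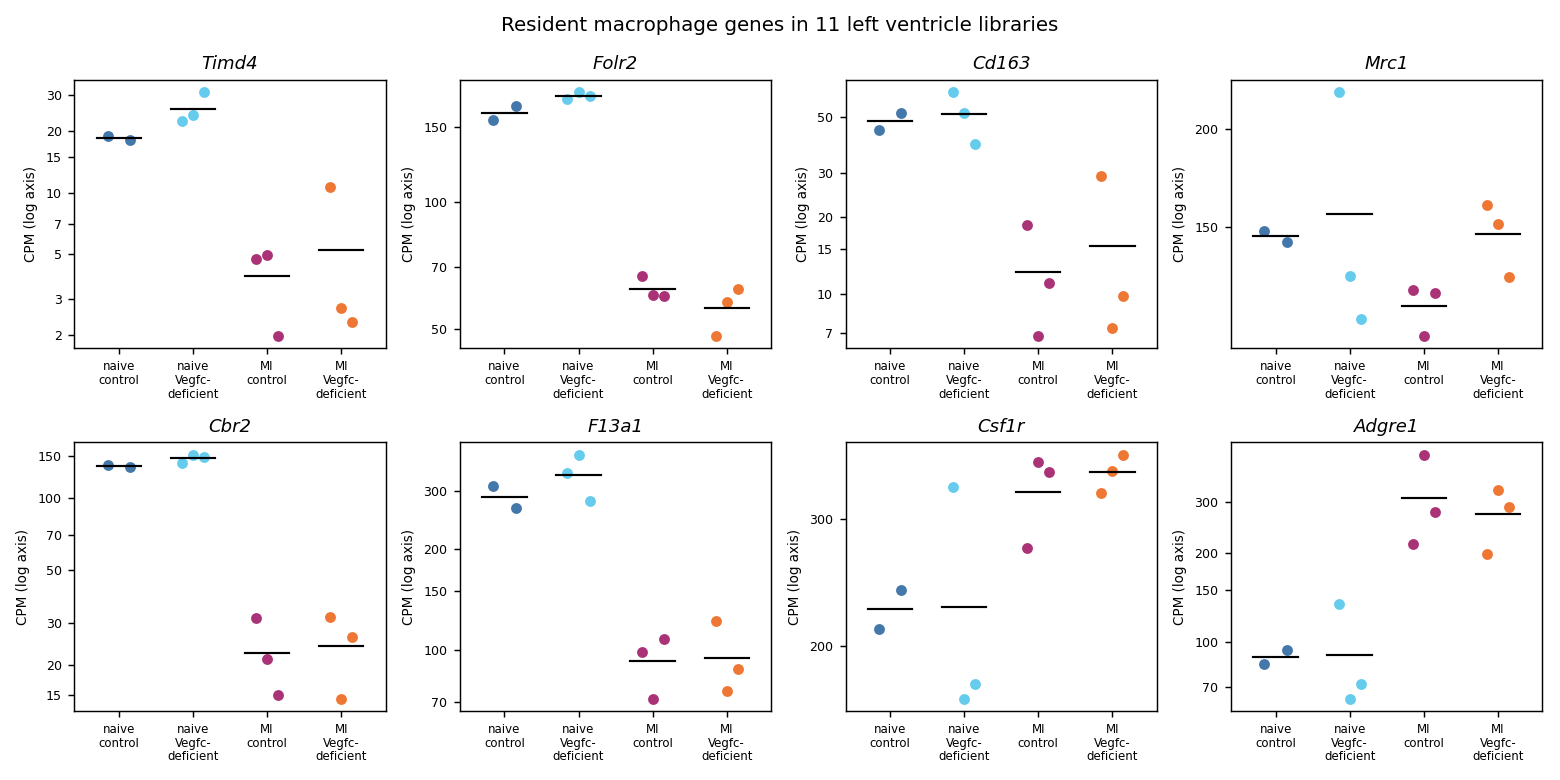
CPM on a log axis (vertical) of each of the 8 genes in the 11 libraries, by group (horizontal). Points are libraries, in the order in which the groups were listed, and bars are arithmetic means (n = 2 naive control and n = 3 in each other group). Every MI library lay below every naive library for Timd4, Folr2, Cd163, Cbr2 and F13a1, and above every naive library for Adgre1.

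Timd4 (ENSMUSG00000055546, GRCm38 chromosome 11, 46810800 to 46844332, plus strand) encodes a receptor for phosphatidylserine, the signal that dying cells expose, and is a mark of macrophages that persist without monocyte input. It was at 18.9 and 18.0 CPM in naive control M44 and M45 and at 22.3, 24.0 and 31.1 CPM in naive Vegfc-deficient M149, M150 and M34. In MI hearts it was at 4.74, 4.94 and 1.98 CPM in control M006, M38 and M40 and at 10.6, 2.73 and 2.32 CPM in Vegfc-deficient M35, M900 and M913. All 6 MI libraries lay below all 5 naive libraries, and M35 lay closest to them. The log2 fold change was -2.25 (standard error 0.58) in control hearts, with an adjusted p of 0.00929 by edgeR. It was -2.32 (standard error 0.54) in Vegfc-deficient hearts, with an adjusted p of 0.00447 by edgeR. Without M35 the second value was -3.35.

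Folr2 (ENSMUSG00000032725, chromosome 7, 101839988 to 101857194, minus strand) encodes folate receptor beta, a folate uptake receptor of tissue macrophages. Naive control hearts had 155.7 and 168.2 CPM and naive Vegfc-deficient hearts 174.3, 181.6 and 177.6 CPM. The MI control hearts had 66.6, 60.3 and 60.0 CPM and the MI Vegfc-deficient hearts 48.1, 58.0 and 62.2 CPM. MI and naive libraries lay far apart, and M35 was the lowest of all. MI hearts differed from naive hearts by a log2 fold change of -1.38 (standard error 0.13, adjusted p 0.000147 by edgeR) in control and -1.66 (standard error 0.13, adjusted p 2.82e-05) in Vegfc-deficient hearts. An exon of the antisense gene Gm10602 overlaps Folr2, and the strand setting of the authors' counting is not given in the sources used here, so reads of the pair may not have been separated.

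Cd163 (ENSMUSG00000008845, chromosome 6, 124304656 to 124330527, plus strand) encodes the receptor that clears complexes of haptoglobin and haemoglobin. Its levels were 44.3 and 51.8 CPM in naive control and 62.6, 51.8 and 39.1 CPM in naive Vegfc-deficient hearts. They were 18.6, 6.8 and 11 CPM in MI control and 29.1, 7.34 and 9.77 CPM in MI Vegfc-deficient hearts. MI libraries again lay below all naive libraries, with M35 the highest among them. The log2 fold changes were -2.0 (standard error 0.54, adjusted p 0.0115 by edgeR) in control and -1.74 (standard error 0.5, adjusted p 0.0129) in Vegfc-deficient hearts. The call ended in control hearts without M45 (edgeR adjusted p 0.0614) and in Vegfc-deficient hearts without M913 (edgeR adjusted p 0.0528), and without M35 the log2 fold change was -2.58.

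Mrc1 (ENSMUSG00000026712, chromosome 2, 14229392 to 14332057, plus strand) encodes the mannose receptor, which takes up glycoproteins and is borne by alternatively activated macrophages and by some endothelium. Naive control libraries had 148.3 and 143.4 CPM and naive Vegfc-deficient libraries 223.5, 129.5 and 114.1 CPM, the first of these being M149. The MI control libraries had 124.2, 108.5 and 123.1 CPM and the MI Vegfc-deficient libraries 160.1, 151.2 and 129.1 CPM. The MI control hearts lay below the naive controls by a small margin, and the Vegfc-deficient groups overlapped. On the log2 scale the difference was -0.3 (95% interval -0.85 to 0.25, adjusted p 0.338 by edgeR) in control and -0.085 (95% interval -0.58 to 0.41, adjusted p 0.762) in Vegfc-deficient hearts. Scaling by total counts turned both, to 0.15 and 0.4, and the second was 0.27 without M149.

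Cbr2 (ENSMUSG00000025150, chromosome 11, 120729489 to 120732114, minus strand) encodes a carbonyl reductase that is enriched in resident macrophages of several tissues. It was at 137.4 and 133.8 CPM in naive control and at 139.4, 151.3 and 148.3 CPM in naive Vegfc-deficient hearts. It was at 31.5, 21.3 and 15.0 CPM in MI control and at 31.7, 14.5 and 26.2 CPM in MI Vegfc-deficient hearts. The highest MI library, M35, was thus at 31.7 CPM and the lowest naive library, M45, at 133.8 CPM. The log2 fold change was -2.59 (standard error 0.33, adjusted p 0.000335 by edgeR) in control and -2.6 (standard error 0.31, adjusted p 0.000111) in Vegfc-deficient hearts, the lowest of the 8 in each. Of the 50-base windows of its exons, 12.1% also occur in Gm11771, so that some of its reads may have been dropped or assigned to that copy.

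F13a1 (ENSMUSG00000039109, chromosome 13, 36867178 to 37050244, minus strand) encodes the A subunit of coagulation factor XIII, which cross-links fibrin. The naive libraries had 308.7 and 265.7 CPM in control and 338.5, 384.0 and 279.9 CPM in Vegfc-deficient hearts. After MI the values were 98.5, 71.5 and 108.1 CPM in control and 121.8, 75.4 and 87.6 CPM in Vegfc-deficient hearts. MI and naive libraries did not overlap, and M35 was again the highest after MI. On the log2 scale the MI effect was -1.63 (standard error 0.24, adjusted p 0.000608 by edgeR) in control and -1.82 (standard error 0.23, adjusted p 0.000136) in Vegfc-deficient hearts. The antisense gene Gm30489 overlaps an exon of F13a1.

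Csf1r (ENSMUSG00000024621, chromosome 18, 61100598 to 61132149, plus strand) encodes the receptor for the macrophage growth factors Csf1 and Il34, on which most macrophages depend. It was at 210.8 and 239.1 CPM in naive control and at 332.5, 168.6 and 176.9 CPM in naive Vegfc-deficient hearts, where the first value is M149. In MI control hearts it was at 273.5, 359.8 and 349.2 CPM and in MI Vegfc-deficient hearts at 326.4, 349.9 and 368.9 CPM. MI libraries lay above the other 4 naive libraries, and M149 lay among them. The log2 fold change was 0.54 (95% interval -0.084 to 1.17, adjusted p 0.132 by edgeR) in control and 0.62 (95% interval 0.071 to 1.18, adjusted p 0.0526) in Vegfc-deficient hearts. Without M149, edgeR gave 0.54 (adjusted p 0.0262) and 1.01 (adjusted p 0.00126), and with total counts as the scale 0.99 (adjusted p 0.0179) and 1.1 (adjusted p 0.00458). Exons of Hmgxb3 overlap it on the other strand.

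Adgre1 (ENSMUSG00000004730, chromosome 17, 57358691 to 57483527, plus strand) encodes an adhesion receptor that is the classical surface mark of mouse macrophages. Naive control hearts had 84.3 and 93.7 CPM and naive Vegfc-deficient hearts 134.7, 63.9 and 71.7 CPM, with M149 again highest. The MI control hearts had 214.5, 433.9 and 277.2 CPM, of which M38 was highest, and the MI Vegfc-deficient hearts had 198.5, 327.6 and 288.8 CPM. All 6 MI libraries lay above all 5 naive libraries. M38 also held the highest sum of 14 genes of macrophages in general, 11120.8 CPM against 3074.5 to 9232.1 CPM in the other 5 MI libraries. Its sum of 6 T cell markers was highest as well, 163.3 CPM against 15.6 to 30.0 CPM. The part of either in Adgre1 was not tested. MI hearts stood at a log2 fold change of 1.79 (standard error 0.4, adjusted p 0.00425 by edgeR) in control and 1.59 (standard error 0.34, adjusted p 0.00269) in Vegfc-deficient hearts. Without M38 the first value was 1.4 (adjusted p 0.0124 by edgeR).

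**Figure D2:**
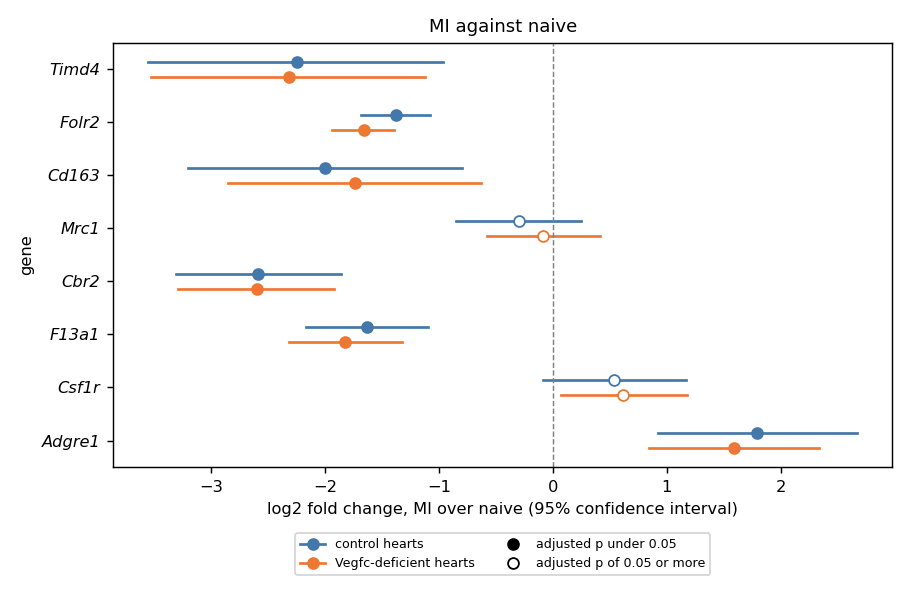
Log2 fold change of MI over naive (horizontal) for the 8 genes (vertical), in control hearts (blue) and Vegfc-deficient hearts (orange). Points are edgeR estimates, filled at an adjusted p under 0.05, and lines are 95% confidence intervals. The 5 genes called lower lay left of 0 and Adgre1 right of it in both genotypes, between -2.6 and 1.79, and of the open points those of Mrc1 lay left and those of Csf1r right of 0.

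Set against exon length, the order of the 8 genes differed between naive and MI hearts. In naive control hearts Folr2 was at 104.8 ± 5.69 CPM per kb (SD, n = 2) and Cbr2 at 102.2 ± 1.88, and these overlapped. F13a1 (42.6 ± 4.51) and Csf1r (39.0 ± 3.47) followed and overlapped as well, then came Adgre1 (27.5 ± 2.05), Mrc1 (22.9 ± 0.543), Cd163 (8.8 ± 0.971) and Timd4 (8.5 ± 0.285), of which the last pair overlapped. Naive Vegfc-deficient hearts had the same order down to Mrc1, there with overlap between each pair of neighbours from F13a1 to Mrc1, and Timd4 (11.9 ± 2.16 CPM per kb, SD, n = 3) lay above Cd163 (9.36 ± 2.15) with overlap. In MI control hearts Adgre1 was highest at 95.3 ± 34.9 CPM per kb (SD, n = 3), followed by Csf1r at 56.7 ± 8.15 and Folr2 at 40.3 ± 2.42, with no overlap between neighbours. Mrc1 (18.6 ± 1.38), Cbr2 (17.0 ± 6.27) and F13a1 (13.8 ± 2.81) overlapped in turn, and Cd163 (2.22 ± 1.09) and Timd4 (1.79 ± 0.76) were lowest and overlapped. The MI Vegfc-deficient hearts had the same order of means, from Adgre1 at 83.9 ± 20.5 CPM per kb (SD, n = 3) to Timd4 at 2.41 ± 2.16, and there Adgre1 and Csf1r (60.3 ± 3.68) overlapped.

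Each gene was also read as a percent of Csf1r CPM in the same library, a ratio within a library on which the scaling between libraries has no effect. Timd4 was 7.54% to 8.97% of Csf1r in naive control and 6.69% to 17.6% in naive Vegfc-deficient libraries, and 0.567% to 1.73% and 0.629% to 3.26% after MI. Folr2 was 52.4% to 107.7% of Csf1r over the naive libraries and 14.7% to 24.4% over the MI libraries. For Cd163 the ranges were 18.8% to 30.7% and 1.89% to 8.93%, for Cbr2 41.9% to 89.7% and 4.13% to 11.5%, and for F13a1 101.8% to 227.8% and 19.9% to 37.3%. Mrc1, whose CPM was not called, was 60.0% to 76.8% of Csf1r in naive and 30.2% to 49.1% in MI libraries. Adgre1 was 37.9% to 40.5% of Csf1r in the 5 naive libraries, M149 included at 40.5%, and 60.8% to 120.6% in the 6 MI libraries. All 7 ratios thus had naive and MI ranges that did not overlap, 6 of them lower after MI and that of Adgre1 higher. Over all 14778 genes other than Csf1r, 33.2% did not overlap, 26.1% lower and 7.11% higher after MI. A ratio shows unequal change of a pair of genes and not which of them changed.

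**Figure D3:**
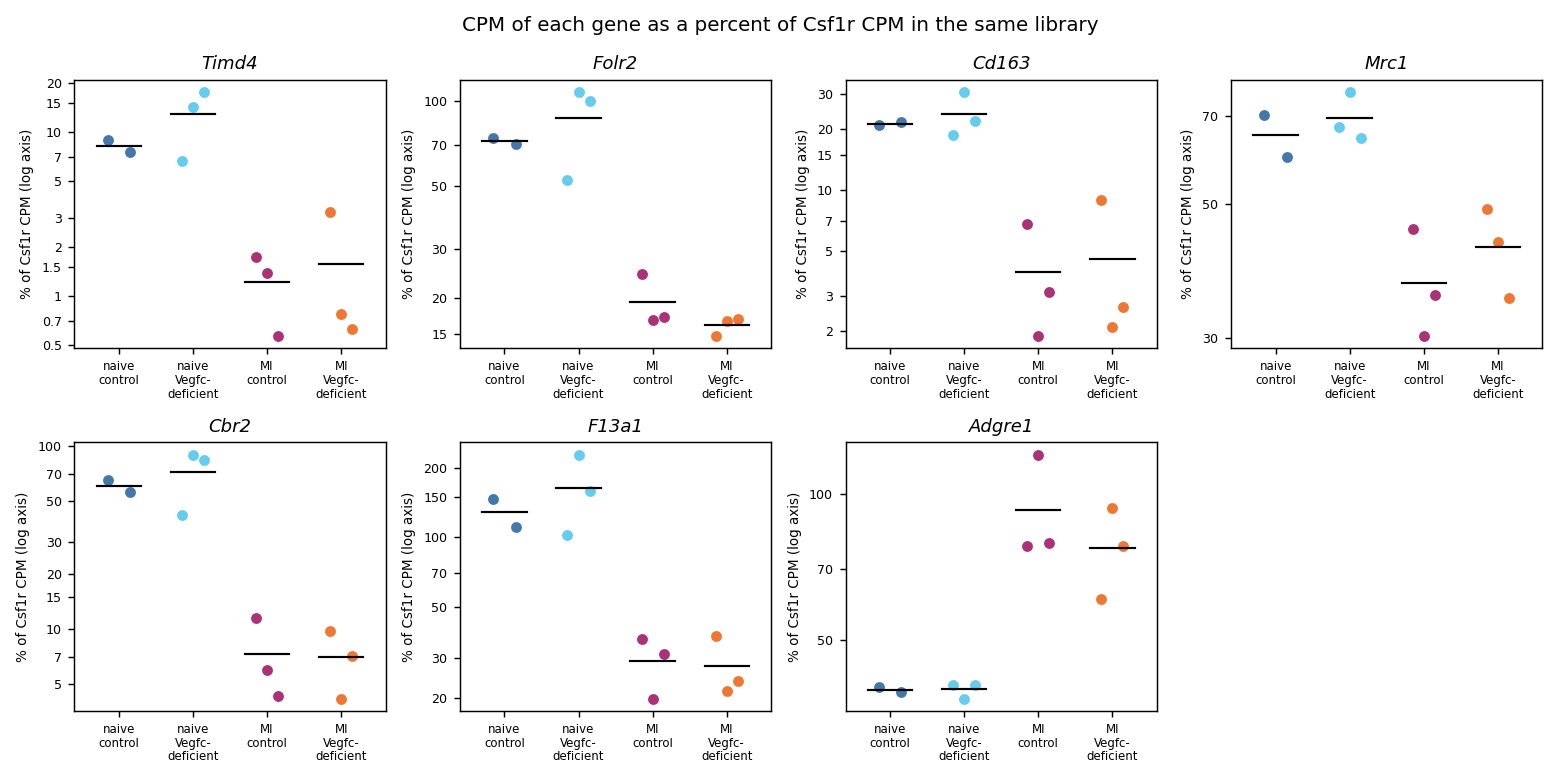
CPM of 7 genes as a percent of Csf1r CPM in the same library (vertical, log axis), by group (horizontal). Points are libraries and bars are arithmetic means (n = 2 naive control and n = 3 in each other group). The Adgre1 ratio lay within 37.9% to 40.5% in all naive libraries and at 60.8% to 120.6% after MI, and the other 6 ratios were lower after MI.

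The libraries that stood apart also stood apart in several of the 8 genes. Of the 5 naive libraries, M149 was highest in Csf1r, Adgre1, Mrc1 and Cd163. M44 and M45 lay between M149 and the pair M150 and M34 in Csf1r, Adgre1, Mrc1 and Chil3. These naive controls, the baseline of each MI effect in control hearts, had Chil3 at 579.9 and 601.1 CPM. M150 and M34 had 26.0 and 54.2 CPM, and leaving out M149 leaves this control baseline in place. Among the MI libraries M35 was highest in Timd4, Cd163, Mrc1, Cbr2 and F13a1 and lowest in Folr2 and Adgre1. In Cbr2 M006 lay close to it, at 31.5 CPM against 31.7 CPM. The part of the cells behind Chil3 or Alox15 in these values was not tested.

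**Figure D4:**
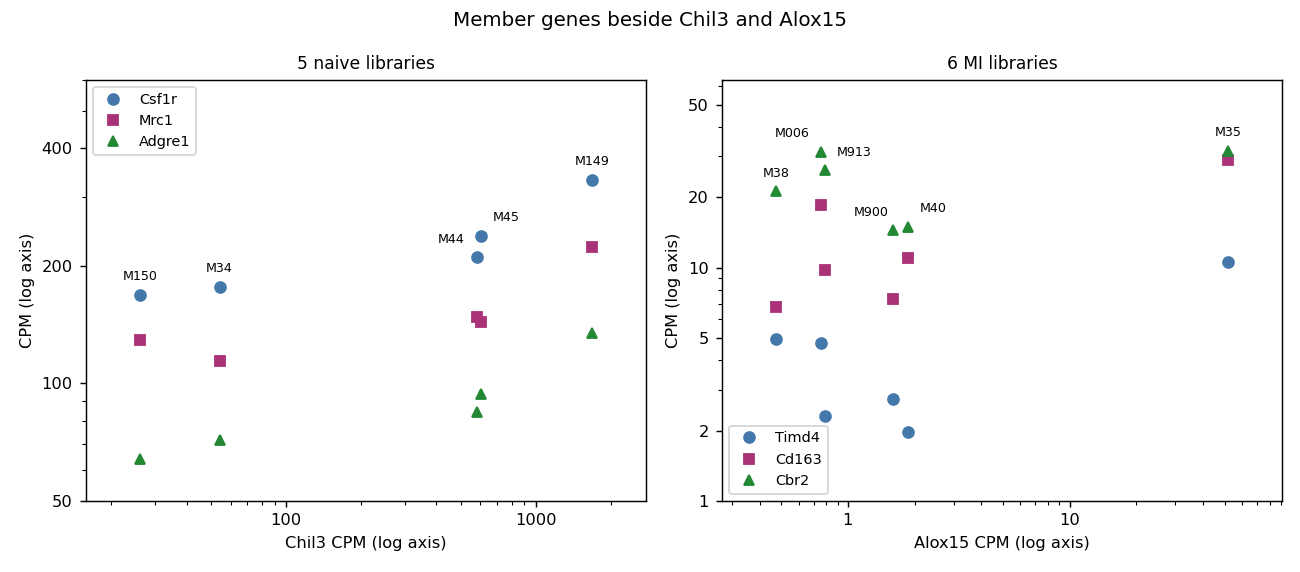
Left, CPM of Csf1r, Mrc1 and Adgre1 (vertical, log axis) beside Chil3 CPM (horizontal, log axis) in the 5 naive libraries. Right, CPM of Timd4, Cd163 and Cbr2 beside Alox15 CPM in the 6 MI libraries. Points are libraries, named by mouse. M149, at 1678.9 CPM of Chil3, was highest in all 3 genes on the left. M35, at 51.9 CPM of Alox15, was highest in all 3 on the right. In Cbr2 its lead was slight, at 31.7 CPM against 31.5 CPM in M006, whose Alox15 was at 0.754 CPM.

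The genes most like each member were those with the smallest root mean square difference of log2 CPM over the 11 libraries after each gene was centred on its own mean. For Adgre1 these were AB124611 (0.101) and Wdfy4 (0.148), and for Csf1r Rasa3 (0.093) and Arhgap39 (0.107). For Folr2 they were Eif1 (0.103) and Dnmt3l (0.128), for Mrc1 Pi4ka (0.123) and Fnip1 (0.127), and for F13a1 Gfra4 (0.194) and Ndufaf2 (0.212). Cbr2 lay closest to the mitochondrial genes Ndufv3 (0.146) and Atp5h (0.174), which encode subunits of complex I and of ATP synthase. Timd4 lay closest to Jph1 (0.264) and Tmem117 (0.275), of which Jph1 encodes a protein that links muscle membranes, and Cd163 to Spa17 (0.344) and C230035I16Rik (0.363). No member was among the 2 genes most like another member. Between members the nearest pairs were Folr2 and F13a1 (0.313), Cd163 and F13a1 (0.43), Mrc1 and Csf1r (0.44) and Timd4 and Cbr2 (0.469). Among all genes ranked by likeness to the first of each pair, the second stood at 590, 22, 4857 and 313.

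A list of 16 other genes of resident cardiac macrophages moved in both directions. In control hearts 8 were lower after MI, 4 were higher and 4 were not called, with a median log2 fold change of -1.02. In Vegfc-deficient hearts 8 were lower, 3 higher and 5 not called, with a median of -0.94. Over all genes, 24.1% were lower and 26.3% higher in control hearts, and 27.7% and 30.0% in Vegfc-deficient hearts. These shares stand beside each list of genes that follows as well. Pf4, a chemokine that resident macrophages share with platelets, fell by 1.49 (standard error 0.16) and fell by 1.09 (standard error 0.15) on the log2 scale. The lectin Cd209g fell by 3.4 and fell by 3.59, though from only 1.47 to 6.1 CPM in naive hearts. Igf1, a growth factor, rose by 1.61 in control and 1.09 in Vegfc-deficient hearts, Gas6, a bridge between dying cells and their receptors, by 1.2 and 0.92, and the scavenger receptor Stab1 by 0.65 and 0.93. Gpr34 rose by 2.31 in control hearts. All 8 that were lower in control hearts, named after their values were seen, were Pf4, Cd209g, Vsig4, Ltc4s, Cd209f, Fcna, Ccl24 and Lyve1, and edgeR adjusted p ranged up to 0.0256 among them. Under total counts as the scale, 5 of the 16 were lower and 4 higher in control hearts, and 6 lower and 5 higher in Vegfc-deficient hearts. In control hearts 4 were lower without M44 and 5 without M38, and in Vegfc-deficient hearts 5 were higher without M900.

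Of 14 genes of macrophages in general, 9 rose after MI in control and 8 in Vegfc-deficient hearts, and none fell, with medians of 1.25 and 0.9. Cx3cr1, the fractalkine receptor, rose by 2.69 (standard error 0.37) and 2.04 (standard error 0.31), and Fcgr1, a high-affinity IgG receptor, by 2.6 and 1.86. The complement genes C1qb and C1qc rose by 1.7 and 1.35 in control hearts, and Mertk, a receptor for dying cells, by 0.95 in Vegfc-deficient hearts. Without M35 and M149, 13 of the 14 rose in Vegfc-deficient hearts. The number that rose was 2 in control hearts without M44 or without M45, and 3 in Vegfc-deficient hearts without M900 or M913, 4 without M34 and 5 without M150. Of 15 tested genes of monocytes and recruited macrophages, 6 rose and 1 fell in each genotype, with medians of 1.92 and 0.59. Ccr2, the receptor that brings monocytes out of the marrow, rose by 4.62 and 2.74, from 4.28 to 11.2 CPM over the naive libraries to 44.3 to 199.9 CPM over the MI libraries. Plac8 rose by 5.22 and 3.0. Chil3, a lectin of monocytes and alternatively activated macrophages, fell by 6.37 and fell by 6.45, with its highest values in the library labelled M149 and both naive controls. The fall of Chil3 was not called in Vegfc-deficient hearts without M35 and M149, where 8 genes of the list rose and 0 fell. In control hearts 2 genes of this list rose without M38, M44 or M45 and 3 without M40, and in Vegfc-deficient hearts 3 rose without M900 or M150.

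Of 14 tested growth factors and regulators of the lineage, 9 rose and 3 fell in control hearts (median 0.84), and 7 rose and 2 fell in Vegfc-deficient hearts (median 0.79). Csf1, the main ligand of Csf1r, rose by 0.6 (standard error 0.11) and 0.85 (standard error 0.1), from 43.2 to 50.5 CPM over the naive libraries to 61.9 to 88.9 CPM over the MI libraries. Maf, a regulator whose half-site is marked in the Timd4 and Cbr2 promoters, rose by 0.92 and 0.75. Irf8, needed for monocytes and dendritic cells, rose by 2.07 in control hearts, and Nr1h3, a sterol receptor, fell by 1.22 in Vegfc-deficient hearts. Of this list 4 genes rose in control hearts without M44 or M45 and 5 without M40, 1 fell without M44, and 4 rose in Vegfc-deficient hearts without M913.

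Of 9 genes of haemoglobin and haem handling, the field in which Cd163 works, 3 rose in control hearts (median 0.88). In Vegfc-deficient hearts 4 rose and 1 fell (median 1.13). Over all genes, 26.3% were called higher and 24.1% lower in control hearts, and 30.0% and 27.7% in Vegfc-deficient hearts. No result about this field or the next is read from these counts. Hp, haptoglobin, rose by 3.21 (standard error 0.82) and 2.83 (standard error 0.66), and Lrp1, a receptor that takes up haem bound to haemopexin, by 1.08 and 1.31. Hmox1, which degrades haem, rose by 1.7 in Vegfc-deficient hearts and Fth1, the ferritin heavy chain, fell there by 1.27. In control hearts 0 rose without M44 and 1 without M45, and in Vegfc-deficient hearts 2 fell without M913. Of 9 coagulation and fibrin genes, the field of F13a1, 1 rose and 1 fell in control hearts (median -0.64), and 2 rose in Vegfc-deficient hearts (median 0.038). Plau, a plasminogen activator, rose by 1.0 in Vegfc-deficient hearts, and Thbd, thrombomodulin, fell by 0.77 in control hearts. In control hearts 0 fell without M38, M40, M44 or M45, 3 fell without M149 or M150, and 2 rose without M35. In Vegfc-deficient hearts 4 rose without M149 and 1 without M900, M913 or M150, and 2 fell without M35 and 1 without M006.

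Markers of other cell types moved with MI as well, and their part in the values of the 8 genes was not tested. The shares over all genes were 24.1% lower and 26.3% higher in control hearts, and 27.7% and 30.0% in Vegfc-deficient hearts. All 8 cardiomyocyte markers were lower in both genotypes, with summed levels of 78975.5 to 101104.6 CPM over the naive and 2912.0 to 24513.5 CPM over the MI libraries. Of 8 fibroblast markers 5 were higher in control and 6 in Vegfc-deficient hearts, with sums of 5303.2 to 7204.2 CPM and 26159.5 to 39289.4 CPM. Of 6 blood endothelial markers 3 were lower in each genotype and 1 was higher in Vegfc-deficient hearts, and of 5 lymphatic endothelial markers 2 were higher and 1 lower in control and 3 higher and 1 lower in Vegfc-deficient hearts. T cell markers were higher in 6 of 6 in control and 1 of 6 in Vegfc-deficient hearts, where 4 were higher without M38 or M40, 2 without M006 and 0 without M149 or M913, and 6 of 6 in control hearts became 1 without M44 and 2 without M45. Neutrophil markers were higher in 3 of 7 and 1 of 7, dendritic cell markers in 3 of 7 and 4 of 7, and eosinophil markers in 1 of 2 and 0 of 2. Platelet markers were higher in 1 of 3 in each, alveolar macrophage markers in 2 of 6 and 1 of 6, and B cell markers in 0 of 5 in each. Of 5 peritoneal macrophage markers 1 was lower in control hearts and 2 higher and 1 lower in Vegfc-deficient hearts, and of 5 red cell markers 0 and 5 were lower. All 6 blood endothelial markers were lower in control hearts without M006. Leaving out 1 library or another moved counts of each marker list by over 1.5 times, except those of cardiomyocytes and fibroblasts.

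For the Vegfc-deficient against the control hearts after MI, the question was whether loss of Vegfc in myeloid cells came with other levels of these genes 9 days after infarction. edgeR called 0 of the 8 genes (0.0% of all genes called), and 0 of the 8 and 1173 of 14779 genes had an unadjusted p under 0.05. DESeq2 called 0 of the 8 and 50 genes in all. Log2 fold changes ran from -0.18 for Adgre1 to 0.41 for Timd4, with edgeR adjusted p of 0.762 to 0.982. The median was 0.092 over the 8 genes and -0.0073 over all genes. Folr2 had the narrowest 95% interval, -0.42 to 0.12, and Timd4 the widest, -0.78 to 1.6. Differences within these bounds remain possible. In Mrc1 the 3 Vegfc-deficient libraries (129.1 to 160.1 CPM) all lay above the 3 control libraries (108.5 to 124.2 CPM), with a log2 fold change of 0.31 (95% interval -0.19 to 0.8). It was 1 of the 8 genes without overlap, beside 12.1% of all genes. Timd4 and Cd163 depended on M35, and without it their log2 fold changes were -0.62 and -0.49 in place of 0.41 and 0.35. Adgre1 was at 0.17 in place of -0.18 without M38. In none of the 6 pathway lists was a gene called between these groups.

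**Figure D5:**
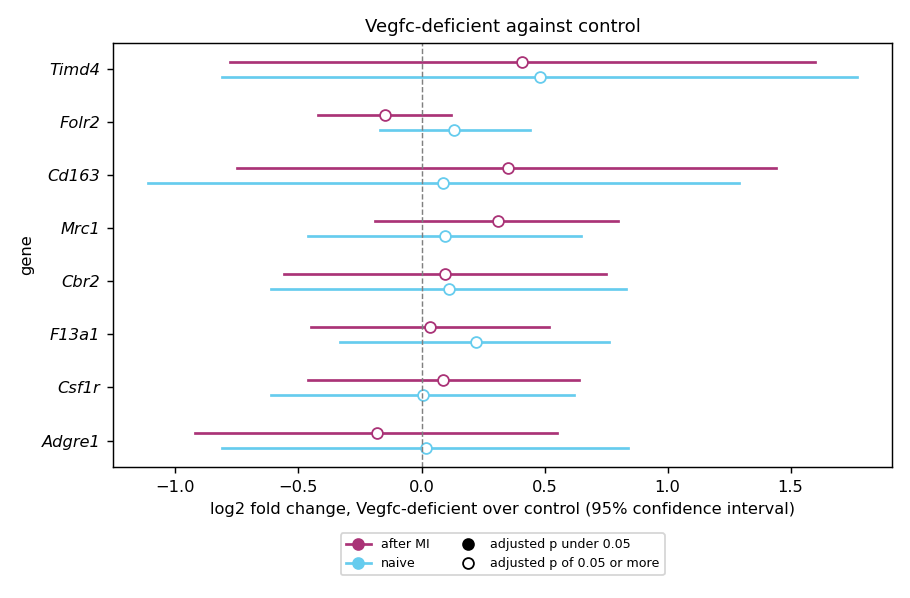
Log2 fold change of Vegfc-deficient over control hearts (horizontal) for the 8 genes (vertical), after MI (purple) and in naive hearts (light blue). Points are edgeR estimates and lines 95% confidence intervals, and open points had an adjusted p of 0.05 or more. All 16 intervals included 0, and those of Timd4 and Cd163 were the widest.

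In naive hearts edgeR called 0 of the 8 genes between genotypes (0.0% of all genes called), and 0 of the 8 and 499 of 14779 genes had an unadjusted p under 0.05. DESeq2 called 14 genes, 0 of them among the 8. Log2 fold changes ran from 0.0069 for Csf1r to 0.48 for Timd4, with an edgeR adjusted p of 1.0 for each. In Timd4, Folr2 and Cbr2 all 3 Vegfc-deficient libraries lay above both controls, that is in 3 of the 8 genes, beside 22.4% of all genes. Without M149, whose Lyz2 lay above both naive controls, groups did not overlap in 6 of the 8, beside 45.6% of all genes. Csf1r, Adgre1 and Mrc1 were then lower in the Vegfc-deficient pair. The 95% intervals were -0.81 to 1.77 for Timd4, -0.17 to 0.44 for Folr2 and -0.61 to 0.83 for Cbr2. Csf1r, Adgre1 and Mrc1 depended on the library labelled M149, and without it their values were -0.38, -0.39 and -0.26.

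The effect of MI did not differ detectably between genotypes in any of the 8 genes. edgeR's interaction term called 0 of the 8 (0.0% of all genes called), and 0 of the 8 and 1226 of 14779 genes had an unadjusted p under 0.05, while DESeq2 called 54 genes and 0 of the 8. The interaction ran from -0.28 for Folr2 (95% interval -0.69 to 0.12) to 0.26 for Cd163 (95% interval -1.36 to 1.88), with edgeR adjusted p of 0.67 to 0.995. The lower Timd4, Folr2, Cd163, Cbr2 and F13a1 and the higher Adgre1 were thus called in each genotype, with no difference between genotypes that these 11 libraries could detect.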

How the data were processed

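Stranded mRNA libraries of left ventricle were sequenced, 1 per mouse (TruSeq). The authors deposited raw read counts per Ensembl gene for each library, without normalization. The submitters' processing notes name cutadapt 1.13, STAR, HTSeq 0.6.1p1, DESeq2 1.14.1 and the build mm10. The strand setting is not given in the sources used here.

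All 11 libraries entered 1 fit of 4 groups without covariates (edgeR 4.0.16, R 4.3.3), with filterByExpr, TMM factors and the quasi-likelihood test, adjusted by Benjamini-Hochberg over 14779 genes at a threshold of 0.05. CPM are counts scaled to the TMM-adjusted library size. Standard errors are the absolute log2 fold change over the square root of F, and intervals use the fit's degrees of freedom. CPM were divided by exon length from GENCODE M21, in which 24991 of 25006 IDs were found. The script was tested on simulated data. Samples were grouped by the labels.

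The members and lists (6 pathway and 13 marker lists) were chosen with earlier results of these data known. Text names all 8 members, the 2 genes most like each, and up to 4 genes per list with the smallest p, except some not reported here. Sequence sharing with other genes was read from 50-base windows of transcripts. Alternatives were DESeq2 size factors, total counts, DESeq2's Wald test (1.42.0), other filters, only the groups compared, and leaving out libraries.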

Additional observations from a re-analysis of the deposited data

How the results depend on the processing

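Timd4, Folr2, Cbr2 and F13a1 were called lower and Adgre1 higher after MI in 18 of 18 alternatives in each genotype, and Cd163 in 17 of 18. Scaling by total counts moved the median log2 fold change of all genes by 0.445 in control and 0.497 in Vegfc-deficient hearts, so that 76.2% and 75.5% of calls were higher, beside 52.1% and 52.0% with TMM. It gave Mrc1 0.15 and 0.4 after MI, Csf1r -0.019 and Adgre1 -0.0059 between naive genotypes and an interaction of 0.04 for Cbr2. Csf1r between naive genotypes was -0.0032 with DESeq2 size factors, -0.0069 by DESeq2's Wald test and -0.007 with no filter, beside 0.0069, and the Cbr2 interaction was 0.0046 by the Wald test. The fit without M35 and M149, the list counts without 1 library and the naive overlap without M149 were chosen after seeing the data. Genes called between genotypes numbered 50 after MI and 14 in naive hearts by DESeq2, with 54 for the interaction, and 1, 47 and 10 without M35 and M149. In naive hearts 2 were called when only those groups were fitted. Without both libraries, Mrc1 after MI in Vegfc-deficient hearts was 0.2. Between genotypes after MI, Timd4 was -0.62, Cd163 -0.49, Cbr2 -0.15 and F13a1 -0.18. Between naive genotypes, Cd163 was -0.085, Mrc1 -0.26, Csf1r -0.38 and Adgre1 -0.39. The interaction was -0.4 for Cd163 and 0.39 for Adgre1.

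Leaving out 1 library at a time, genes called after MI in control hearts ranged from 4574 (without M45; 4880 without M44) to 7636 (without M149), beside 7450. Calls ranged from 0 to 1 (without M006) between genotypes after MI, 0 to 17 (without M149) between naive genotypes and 0 to 1 for the interaction. Mrc1 after MI in Vegfc-deficient hearts ranged from -0.27 to 0.27. Between genotypes after MI the ranges were -0.62 to 0.79 for Timd4, -0.49 to 0.81 for Cd163, -0.15 to 0.41 for Cbr2, -0.19 to 0.21 for F13a1, -0.026 to 0.19 for Csf1r and -0.4 to 0.17 for Adgre1. Between naive genotypes they were -0.084 to 0.25 for Cd163, -0.26 to 0.27 for Mrc1, -0.38 to 0.18 for Csf1r and -0.39 to 0.21 for Adgre1. For the interaction they were -1.1 to 0.31 for Timd4, -0.58 to 0.75 for Cd163, -0.26 to 0.34 for Cbr2, -0.089 to 0.47 for Csf1r and -0.4 to 0.21 for Adgre1. The cause was not tested. No paired analysis was possible because the replicates carry mouse numbers that no 2 groups share. With 2 or 3 hearts per group, the upper bounds of Timd4 and Cd163 between genotypes lay at 1.29 to 1.77 on the log2 scale.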
